A study of Saccharomyces cerevisiae with 18 samples.

Results

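The PHO regulon is the set of yeast genes that the transcription factor Pho4 activates when phosphate is low. The 10 genes described here (PHO84, PHO89, GIT1, PHO86, SPL2, PHO81, PHO5, PHO8, PHM8 and PHM6) were taken as rows of the count table by gene name, out of 6713 open reading frames. All 10 passed the filter on low counts in RNA-Seq and in Ribo-Seq.

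RNA-Seq and Ribo-Seq were performed in 9 cell lysates of Saccharomyces cerevisiae, which gave 18 libraries. Ribo-Seq, or ribosome profiling, sequences the mRNA fragments that ribosomes protect from nuclease, so its counts per gene follow the amount of translation. The wild type (wt) was BY4741, a haploid laboratory strain with the genotype MATa his3Δ1 leu2Δ0 met15Δ0 ura3Δ0, and the mutants carried the same alleles. Strain Δtma20 had tma20Δ:KanMX4, strain Δtma64 had tma64Δ:KanMX4, and strain ΔΔtma20tma64 had tma64Δ:HygMX4 with tma20Δ:KanMX4. TMA20 and TMA64 encode factors that act on the small ribosomal subunit after translation termination. Every strain was grown to exponential phase at 30 °C in rich YPD (yeast extract, peptone, 2% glucose) or in minimal SD (yeast nitrogen base and 2% glucose), and all cultures received 100 µg/ml cycloheximide for 3 minutes before harvest. The study's methods add a complete amino acid supplement to SD. The wt had 2 biological replicates in YPD (WT1 and WT2), and every other strain and medium had 1 lysate, so 5 lysates came from YPD and 4 from SD. Each deletion strain is thus a single culture per medium. The phosphate content of the media is not given in the sources used here.

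Levels are given as CPM, counts scaled to the TMM-adjusted size of each library. Counts on open reading frames were 5608491 to 11388027 per RNA-Seq library and 1668588 to 23532664 per Ribo-Seq library. The Δtma20 SD and wt SD lysates had the fewest footprints. TMA20 was at 0 to 1.52 CPM of RNA in the lysates labelled as lacking it and at 137 to 155 in the others, and TMA64 was at 0 to 0.665 against 83.8 to 95.1 CPM. LEU2, MET17 and URA3, which are deleted in BY4741, had at most 0.115 CPM of RNA. HIS3, of which the his3Δ1 allele lacks only an internal part, was at 157 to 294 CPM in YPD and at 162 to 188 CPM in SD. The 5 MATa markers summed to 1107 to 1498 CPM of RNA in YPD and 1927 to 2157 in SD. Of these, 4 were called higher in SD, where 14.1% of all genes tested were. The MATα markers summed to 40.8 to 58.6 CPM, all from STE3 and SAG1 but for the few reads of the pheromone genes. A list of 7 stress and stationary phase markers also moved with the medium. Its summed RNA was 725 to 950 CPM in YPD and 1149 to 2088 in SD, and 5 of the 7 genes were called higher in SD. The share of RNA reads on no feature was also higher in SD, at 28.3% to 39.1% against 18.8% to 23.6% in YPD. The part of any of these in the differences between media was not tested. In these bulk samples, fewer cells expressing a gene and less RNA per cell cannot be told apart.

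In phosphate-rich medium the cyclin and kinase pair Pho80 and Pho85 phosphorylates Pho4, which the exportin Msn5 then carries out of the nucleus. When phosphate runs low, Pho81 inhibits the kinase, unmodified Pho4 enters the nucleus, and with the partner factor Pho2 it turns on genes for phosphate uptake and phosphate release. Pho4 binds the letters CACGTG with high affinity and CACGTT more weakly, and the general factor Cbf1 also recognises CACGTG.

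The letters CACGTG were present within 600 bases before the start codon in 9 of the 10 genes, and in 7.23% of 6003 open reading frames with such a window. CACGTT, read on either strand, was present in 8 of the 10 genes and in 18.8% of all windows. Since the genes were chosen as Pho4 targets, these counts describe the choice and are no test. The stretches shown here hold the CACGTG farthest from the start codon of the 5 members with the strongest fall in SD RNA and of the 3 with the weakest. They are read 5′ to 3′ on the strand of the gene from the RefSeq sequence of R64, with the Pho4 letters in capitals. For PHM8, which has no CACGTG in the window, the capitals mark CACGTT as read on the other strand.

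PHO84: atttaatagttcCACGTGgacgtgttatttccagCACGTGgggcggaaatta
SPL2: agtatttttgctCACGTGaccgacaagggt
PHO89: atgacaatgcagCACGTGggagacaaatag
PHO5: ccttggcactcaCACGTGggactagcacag
PHM6: gagcttcgctgaCACGTGggaggtgggata
GIT1: cttttcgcggcgCACGTGcatgacggtaaa
PHM8: aaagggggcagcAACGTGcttcacatacaa
PHO86: ccagcgcgcccgCACGTGctctttatggaa

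The PHO84 stretch (chrXIII:26197-26248, reverse strand) holds both CACGTG of that gene, 436 and 414 bases before the start codon, and lies inside the annotated open reading frame YML122C on the same strand. The SPL2 stretch (chrVIII:375444-375473, reverse strand) holds the first of 4 CACGTG, the others standing 147, 90 and 31 bases before the start codon. The PHO5 site (chrII:431187-431216, reverse strand) is 253 bases before the start codon, with a CACGTT at 362 bases. The PHO89 stretch is chrII:798828-798857 and the PHM6 stretch chrIV:1022583-1022612, both on the reverse strand, and the GIT1 stretch is chrIII:299106-299135 on the reverse strand. The PHM8 stretch is chrV:225602-225631 and the PHO86 stretch chrX:192329-192358, both on the forward strand. Apart from the PHO84 stretch, none of these overlaps an annotated open reading frame.

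**Figure D1:**
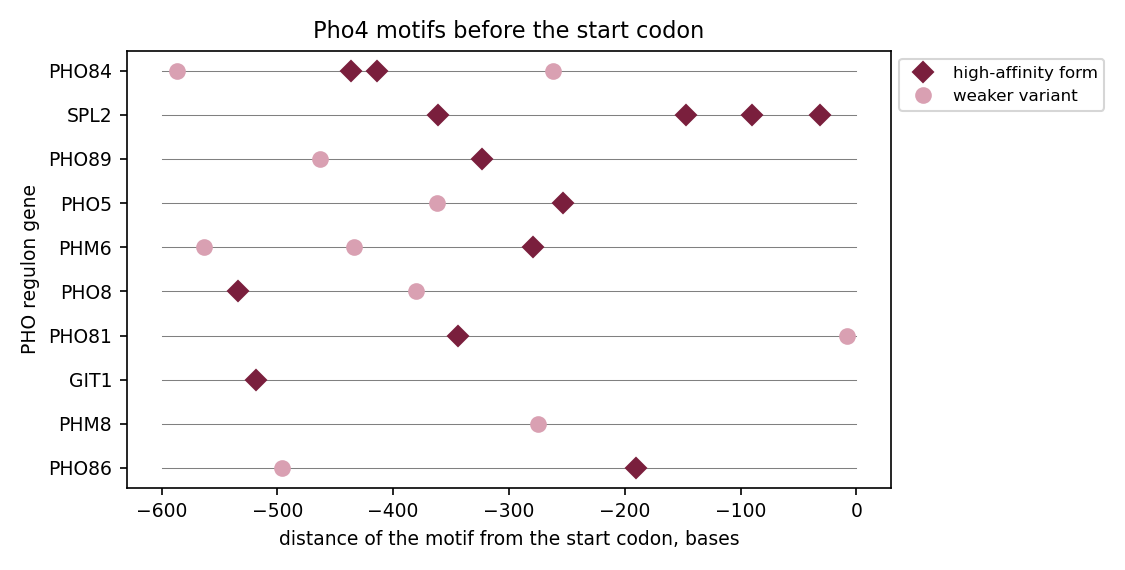
Distance in bases of each CACGTG (diamonds, high-affinity form) and CACGTT (circles, weaker variant) from the start codon within 600 bases before each of the 10 genes, ordered from the strongest fall in SD RNA at the top to the weakest. SPL2 holds 4 high-affinity letters, PHO84 holds 2, PHM8 holds none, and the other genes hold 1 each.

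The first comparison set SD against YPD, with strain as a covariate. All 10 genes had less RNA in SD than in YPD, and all 10 had fewer ribosome footprints. The median log2 difference of the 10 genes was -2.73 in RNA and -2.86 in footprints, where the medians of all genes tested were 0.00 and -0.00. In edgeR's quasi-likelihood test with Benjamini-Hochberg adjustment, all 10 genes passed as lower in RNA, while 11.9% of 5966 genes tested were called lower. In footprints 9 genes passed as lower, against 11.3% of 5369 genes tested, and GIT1 did not (log2 difference -0.91, SE 0.336, edgeR adjusted p = 0.0619). The fall was over 10-fold for 5 genes in RNA and for 5 in footprints, and these were the same genes in both: PHO84, SPL2, PHO89, PHO5 and PHM6. The other 5 genes fell by 1.70-fold to 3.48-fold in RNA.

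**Figure D2:**
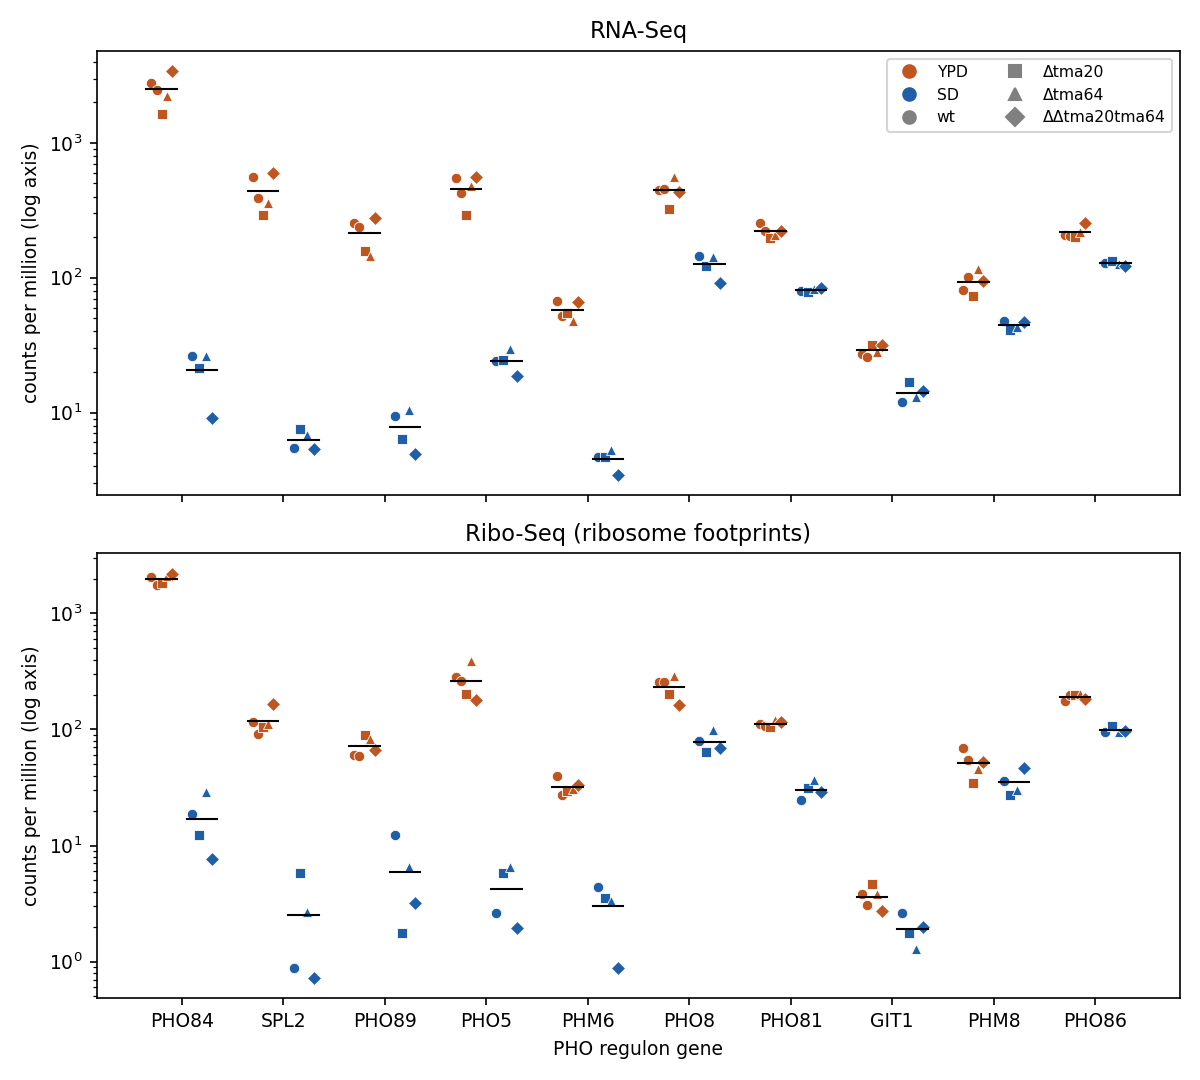
Normalised read counts in CPM (log axes) of the 10 genes in RNA-Seq (top) and Ribo-Seq (bottom). Each point is 1 lysate, colour gives the medium, shape the strain, and the black line the mean of 5 YPD or 4 SD lysates. The YPD and SD points are apart for all 10 genes in RNA and for all but PHM8 in footprints. The same count over all genes is not given here.

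The transporters come first. PHO84 encodes the high-affinity phosphate importer of the plasma membrane, which takes up phosphate together with protons. It is a single-exon gene on the reverse strand of chromosome XIII (24037 to 25800 in R64). PHO84 RNA was at 2786, 2487, 1626, 2234 and 3417 CPM in the YPD lysates of WT1, WT2, Δtma20, Δtma64 and ΔΔtma20tma64. In SD it stood at 26.4, 21.4, 26.3 and 9.04 CPM, for wt, Δtma20, Δtma64 and ΔΔtma20tma64 respectively. The lowest YPD value was 61.5 times the highest SD value, so the media did not overlap in any strain. The log2 difference was -6.88 (SE 0.360, edgeR adjusted p = 8.84e-07), a 118-fold fall and rank 2 from the strongest fall among the 5966 genes.

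PHO84 footprints fell by the same order. They were at 2055, 1743, 1814, 2102 and 2208 CPM in the 5 YPD lysates, in the same order, and at 18.9, 12.3, 29.1 and 7.65 CPM in SD. The log2 difference was -7.04 (SE 0.413, edgeR adjusted p = 1.48e-04), or 132-fold. The SD values rest on 43, 21, 382 and 200 footprints, against 10873 to 16165 in YPD.

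PHO89 encodes a second high-affinity phosphate importer, driven by sodium and active at alkaline pH (chromosome II, 796798 to 798522, reverse strand). Its RNA was at 252, 238, 157, 145 and 276 CPM in YPD and at 9.47, 6.32, 10.4 and 4.88 CPM in SD, a 26.03-fold fall (log2 difference -4.70, SE 0.242, edgeR adjusted p = 8.16e-07). Its footprints fell by 14.0-fold, from 59.3 to 89.6 CPM in YPD to 1.75 to 12.3 CPM in SD. The highest SD value was that of wt, from 28 footprints, and the lowest that of Δtma20, from 3.

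GIT1 encodes the importer of glycerophosphodiesters such as glycerophosphoinositol, an alternative source of phosphate (chromosome III, 297049 to 298605, reverse strand). It was the least abundant of the 10 genes per length in YPD, with 18.6 ± 1.67 RNA CPM per kb (SD, n = 5). GIT1 RNA was at 26.02 to 31.8 CPM in YPD and at 12.00 to 16.8 CPM in SD, a 2.12-fold fall (edgeR adjusted p = 3.45e-04). Its footprint counts were 14 to 39 in YPD and 3 to 52 in SD, too few to place the footprint difference firmly.

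PHO86 encodes a protein of the endoplasmic reticulum that Pho84 needs to leave for the plasma membrane (chromosome X, 192531 to 193466, forward strand). It fell the least of the 10 in RNA, from 199 to 254 CPM in YPD to 123 to 132 CPM in SD (1.70-fold, edgeR adjusted p = 1.87e-04). Its footprints fell 1.96-fold, from 174 to 202 CPM to 94.2 to 107 CPM. The media were apart in both assays despite the small change.

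The regulators of the pathway follow. SPL2 encodes a small protein that turns down low-affinity phosphate transport in phosphate-starved cells (chromosome VIII, 374654 to 375100, reverse strand). SPL2 RNA was at 562, 392, 293, 358 and 594 CPM in YPD for WT1, WT2, Δtma20, Δtma64 and ΔΔtma20tma64, and at 5.44, 7.59, 6.76 and 5.34 CPM in SD for wt and the same mutants. The fall was 67.8-fold (log2 difference -6.08, SE 0.243, edgeR adjusted p = 2.65e-07) and ranked 3 among all genes. Per length, SPL2 RNA in YPD was at 984 ± 294 CPM per kb (SD, n = 5), next to PHO84 at 1423 ± 376, and the lysates of both genes overlapped on that scale.

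SPL2 footprints were at 90.9 to 164 CPM in YPD and at 0.877, 5.85, 2.66 and 0.727 CPM in SD, from 2, 10, 35 and 19 counts. The fall was 78.9-fold (log2 difference -6.30, SE 0.505, edgeR adjusted p = 5.11e-04). The log2 difference was -5.29 without the ΔΔtma20tma64 SD lysate and -5.30 without its YPD lysate, and it was -6.99 and -6.98 without Δtma64 YPD or SD.

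PHO81 encodes the inhibitor of the Pho80 and Pho85 kinase and so sits at the top of the pathway whose output it belongs to (chromosome VII, 954674 to 958210, reverse strand). PHO81 RNA was at 254, 222, 197, 209 and 224 CPM in YPD and at 79.9, 79.0, 82.3 and 84.5 CPM in SD. The SD lysates lay close together and below every YPD lysate. The fall was 2.68-fold in RNA (edgeR adjusted p = 2.13e-06) and 3.76-fold in footprints (edgeR adjusted p = 5.00e-09).

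The phosphatases release phosphate from organic compounds. PHO5 encodes the secreted repressible acid phosphatase (chromosome II, 429548 to 430951, reverse strand). It resembles its neighbour PHO3 and the genes PHO11 and PHO12, and 78.5% of its 28-base windows were unique in the genome, so its counts are uncertain to that extent. PHO5 RNA was at 547, 421, 292, 477 and 556 CPM in YPD and at 24.0, 24.4, 29.4 and 18.8 CPM in SD, an 18.6-fold fall (log2 difference -4.21, SE 0.193, edgeR adjusted p = 4.41e-07).

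PHO5 footprints fell further than its RNA. They were at 284, 262, 204, 389 and 180 CPM in YPD and at 2.63, 5.85, 6.47 and 1.95 CPM in SD, from 6, 10, 85 and 51 counts. The fall was 70.1-fold (log2 difference -6.13, SE 0.163, edgeR adjusted p = 1.22e-11).

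PHO8 encodes the alkaline phosphatase of the vacuole (chromosome IV, 1418550 to 1420250, reverse strand). Its RNA fell 3.48-fold, from 325 to 556 CPM in YPD to 90.8 to 145 CPM in SD, and its footprints fell 2.88-fold, from 163 to 288 to 63.8 to 98.9 CPM. PHM8 encodes a phosphatase of lysophosphatidic acid and nucleotides (chromosome V, 225889 to 226854, forward strand). PHM8 RNA fell 2.06-fold, from 73.1 to 117 CPM to 40.9 to 48.1 CPM (edgeR adjusted p = 1.67e-04).

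PHM8 footprints changed least. They were at 68.8, 55.0, 34.8, 46.0 and 52.9 CPM in YPD and at 35.9, 27.5, 30.1 and 46.6 CPM in SD, and the lowest YPD lysate (Δtma20) stood below the highest 2 SD lysates. The fall of 1.40-fold passed the test (edgeR adjusted p = 0.00962). The call was lost without Δtma64 YPD (edgeR adjusted p = 0.0513), without Δtma64 SD (0.0501) and with both deletions in place of strain (0.189).

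PHM6 encodes a small protein of unknown function (chromosome IV, 1022007 to 1022321, reverse strand). Its RNA was at 47.4 to 67.3 CPM in YPD and at 4.69, 4.71, 5.31 and 3.44 CPM in SD, a 12.6-fold fall (log2 difference -3.65, SE 0.188, edgeR adjusted p = 8.16e-07). Its footprints fell 14.6-fold, to 4.38, 3.51, 3.35 and 0.880 CPM in SD, from 10, 6, 44 and 23 counts. The lowest PHM6 value in both assays was that of ΔΔtma20tma64 in SD. The log2 difference in footprints was -3.86, against -3.11 without that lysate and -3.12 without ΔΔtma20tma64 YPD.

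Per length, the YPD RNA levels of the 10 genes followed the order PHO84, SPL2, PHO5, PHO8, PHO86, PHM6, PHO89, PHM8, PHO81 and GIT1, with means of 1423, 984, 327, 261, 232, 183, 124, 96.7, 62.4 and 18.6 CPM per kb. SPL2 (656 to 1329) and PHO5 (208 to 396) did not overlap over the lysates, while the neighbours from PHO5 to PHM8 did. PHM8 (75.7 to 121), PHO81 (55.6 to 71.7) and GIT1 (16.7 to 20.4 CPM per kb) were apart from each other. In SD the order changed. PHO86 (136 CPM per kb) and PHO8 (73.8) came first, followed by PHM8 at 46.3 and PHO81 at 23.0, and PHO84 (11.8) stood between SPL2 at 14.0 and GIT1 at 9.02. The 10 genes together took 3249 to 5946 CPM of RNA in YPD and 401 to 486 CPM in SD.

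An exact permutation test of each gene's mean log2 CPM between SD and YPD, two-sided and blind to strain, gave p = 0.00794 for all 10 genes in RNA and for 9 in footprints. This is the smallest p that the exact test can give here. It was reached by the genes whose lysates did not overlap between the media, so it restates that separation. The share of all genes that reach it is not given here, so the count describes the 10 genes only. PHM8 footprints gave an exact permutation p of 0.0714.

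The next comparison asked whether footprints fell by more or less than RNA, that is, whether translation efficiency (the ratio of footprint CPM to RNA CPM) differed between media. In edgeR's test of the interaction of medium with assay, 2 of the 10 genes passed, PHO5 and PHO81, both lower in SD, while 7.45% of 5935 genes tested were called in either direction. The median log2 difference of the 10 genes was -0.16, and that of all genes 0.03.

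**Figure D3:**
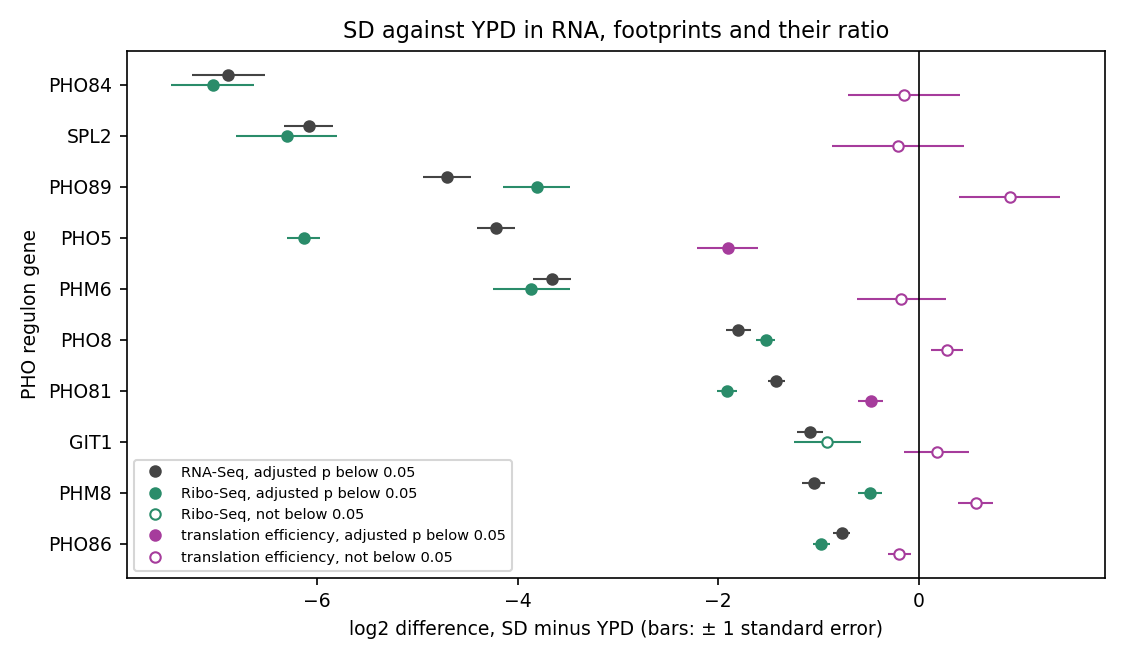
Log2 difference of SD minus YPD for the 10 genes in RNA-Seq, Ribo-Seq and translation efficiency, with bars of 1 standard error either side; filled points had an edgeR adjusted p below 0.05. RNA and footprints fell together from PHO84 (-6.88 and -7.04) to PHO86 (-0.77 and -0.97), and only PHO5 and PHO81 have filled points for translation efficiency.

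The footprint to RNA ratio of PHO5 was 0.519, 0.622, 0.698, 0.815 and 0.324 in the YPD lysates of WT1, WT2, Δtma20, Δtma64 and ΔΔtma20tma64, and 0.110, 0.240, 0.220 and 0.104 in SD. It was the only one of the 10 genes whose ratio did not overlap between the media, a count not given here for all genes. The log2 difference was -1.91 (SE 0.303, edgeR adjusted p = 0.00202), and the gene passed under each of the 15 alternatives tried, between -2.35 and -1.80. The related genes PHO11 and PHO12, whose counts are uncertain since 6.75% and 7.77% of their windows were unique, also passed as lower, with log2 differences of -3.66 and -3.70. Their ratios did not overlap between the media either. Their footprint counts per SD lysate were 0 to 3 and 0 to 8, with 0 in wt for both. PHO3, the constitutive acid phosphatase next to PHO5, did not pass (log2 difference -0.26, edgeR adjusted p = 0.254).

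PHO81 had a ratio of 0.443 to 0.582 in YPD and of 0.307 to 0.444 in SD. The log2 difference was -0.48 (SE 0.127, edgeR adjusted p = 0.0276). The call was lost in 8 of 9 fits that left out 1 lysate, with adjusted p-values of 0.0575 to 0.133, and was kept only without WT1.

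For PHM8 the ratio was higher in SD, at 0.672 to 0.995 against 0.394 to 0.851 in YPD (log2 difference 0.57, SE 0.177, edgeR adjusted p = 0.0608). With the lysate as a block, which pairs both assays of each lysate, it passed (log2 difference 0.58, edgeR adjusted p = 0.0331). PHO89 ratios were spread from 0.278 to 1.30 in SD, and the difference did not pass (log2 difference 0.91, SE 0.503, edgeR adjusted p = 0.314). PHO84 kept ratios of 0.646 to 1.12 in YPD and of 0.574 to 1.11 in SD (log2 difference -0.15, SE 0.555, edgeR adjusted p = 0.911).

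RNA-Seq reads were also counted on the strand opposite to each gene. Such transcripts are known at PHO84, where an antisense RNA that runs across the gene is linked to its repression. On the opposite strand of PHO84 there were 6, 4, 10, 5 and 9 reads in the YPD lysates of WT1, WT2, Δtma20, Δtma64 and ΔΔtma20tma64, and 425, 374, 385 and 372 reads in SD. All SD lysates were far above all YPD lysates, while on the gene's own strand they were far below. The share of the opposite strand in all PHO84 reads was at most 0.109% in YPD and 58.6% to 78.8% in SD, with the highest share in ΔΔtma20tma64. Over all open reading frames the opposite strand held 7.28% to 9.27% of reads per RNA-Seq library.

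The log2 difference of the PHO84 opposite-strand reads was 5.16 (SE 0.249, edgeR adjusted p = 1.30e-13), the strongest rise among 4396 open reading frames tested on that strand. Over the alternatives it stayed between 4.75 and 5.43. Of the 9 members tested on the opposite strand, 3 passed as higher in SD, and 14.6% of all those tested were called higher. The others were PHO81 (log2 difference 1.40, edgeR adjusted p = 6.66e-04) and PHO8 (1.38, edgeR adjusted p = 0.00179). GIT1 had too few opposite-strand reads to be tested.

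**Figure D4:**
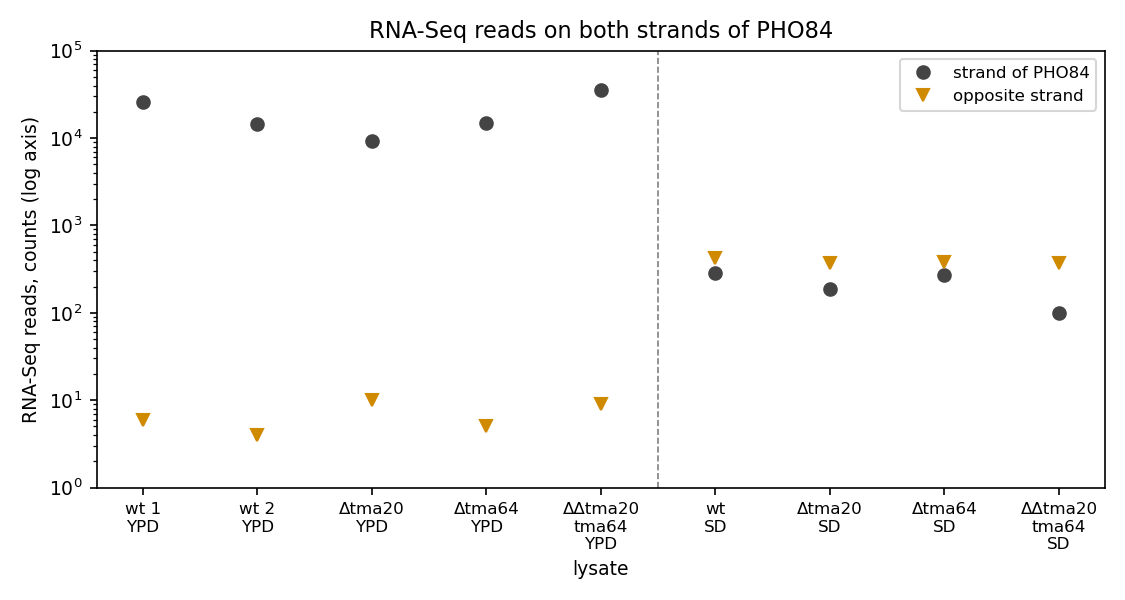
RNA-Seq reads (counts, log axis) on the strand of PHO84 (circles) and on the opposite strand (triangles) in each of the 9 lysates, YPD left of the dashed line and SD right of it. Reads on the gene's strand were 9187 to 35965 in YPD and 100 to 282 in SD, and opposite-strand reads were 4 to 10 and 372 to 425.

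No annotated gene overlaps PHO84 on the opposite strand, and both neighbours, TUB3 and YML122C, lie on the same strand as PHO84, 353 and 237 bp away. PHO81 and PHO8 had opposite-strand reads of 145 to 367 and 32 to 45 in SD, which were 15.7% to 28.2% and 2.75% to 3.51% of their reads. The PHO8 shares were below the 7.28% to 9.27% of all open reading frames. PHO5 had 40.2% to 46.6% of its RNA reads on the opposite strand in SD and 2.16% to 3.96% in YPD. Its opposite-strand level itself did not pass the test (log2 difference 0.20, SE 0.217, edgeR adjusted p = 0.516). PHM8 had 17.0% to 33.4% in YPD and 38.4% to 48.7% in SD, and its opposite-strand level did not pass either (log2 difference 0.06, SE 0.152, edgeR adjusted p = 0.786).

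Footprints on the opposite strand of PHO84 were 0 or 1 per YPD library. They were 3 in wt SD, 0 in Δtma20 SD, 16 in Δtma64 SD and 37 in ΔΔtma20tma64 SD, the deepest library. As a share of PHO84 footprints the last was 15.6%, with an exact Clopper-Pearson 95% interval of 11.2% to 20.9%, which covers counting error only. In the other SD libraries the PHO84 share was 6.52% (wt), 0% (Δtma20) and 4.02% (Δtma64). Over all open reading frames the opposite strand held 5.57% to 6.35% of footprints per library. Of the PHO84 shares, only that of ΔΔtma20tma64 had an interval above this range. PHO5 had 1 to 32 opposite-strand footprints per SD library, 6.59% to 38.6% of its footprints, and at most 0.642% in YPD. The lowest of its SD shares was thus near that of all open reading frames.

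The deletions were compared next, with the medium as a covariate: 4 lysates without TMA20 against 5 with it, and likewise for TMA64. For loss of TMA20, none of the 10 genes passed in RNA with edgeR or DESeq2 and 1 (PHO8) had an unadjusted p under 0.05, while 0.0838% of genes tested were called. In footprints 1 gene passed, PHO8, and 3.95% of all genes were called. PHO5 footprints did not pass (log2 difference -0.81, SE 0.213, edgeR adjusted p = 0.0666), except without Δtma20 YPD (0.0456). In translation efficiency none passed with edgeR or DESeq2, none had an unadjusted p under 0.05, and 0.0674% of genes were called. In the 4 SD lysates alone, a fit with 1 residual degree of freedom, edgeR called 3 members in RNA (PHO84, PHO89 and PHO8) and 9.88% of all genes, and 2 in footprints (PHO84 and PHO89) and 5.27% of all genes, all 5 lower without TMA20. In the YPD lysates alone it called no member in footprints and 0.799% of all genes.

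PHO8 footprints without TMA20 were at 201 (Δtma20) and 163 CPM (ΔΔtma20tma64) in YPD, below 258, 259 and 288 CPM in WT1, WT2 and Δtma64. In SD they were at 63.8 and 69.7 CPM without TMA20 and at 79.8 and 98.9 CPM with it. The lysates without TMA20 were below those with it in both media, and the fitted difference was -0.51 on the log2 scale (SE 0.0978, edgeR adjusted p = 0.0154). The call was lost without Δtma64 YPD (edgeR adjusted p = 0.0531), Δtma20 SD (0.0532), ΔΔtma20tma64 YPD (0.0585) or Δtma64 SD (0.0642), in YPD alone (0.0670) and in SD alone (0.0695), and it was kept without any 1 of the other 5 lysates. PHO8 RNA showed the same order, at 325 and 432 CPM against 451 to 556 in YPD and at 123 and 90.8 against 143 and 145 CPM in SD, but did not pass (log2 difference -0.40, SE 0.117, edgeR adjusted p = 0.289).

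**Figure D5:**
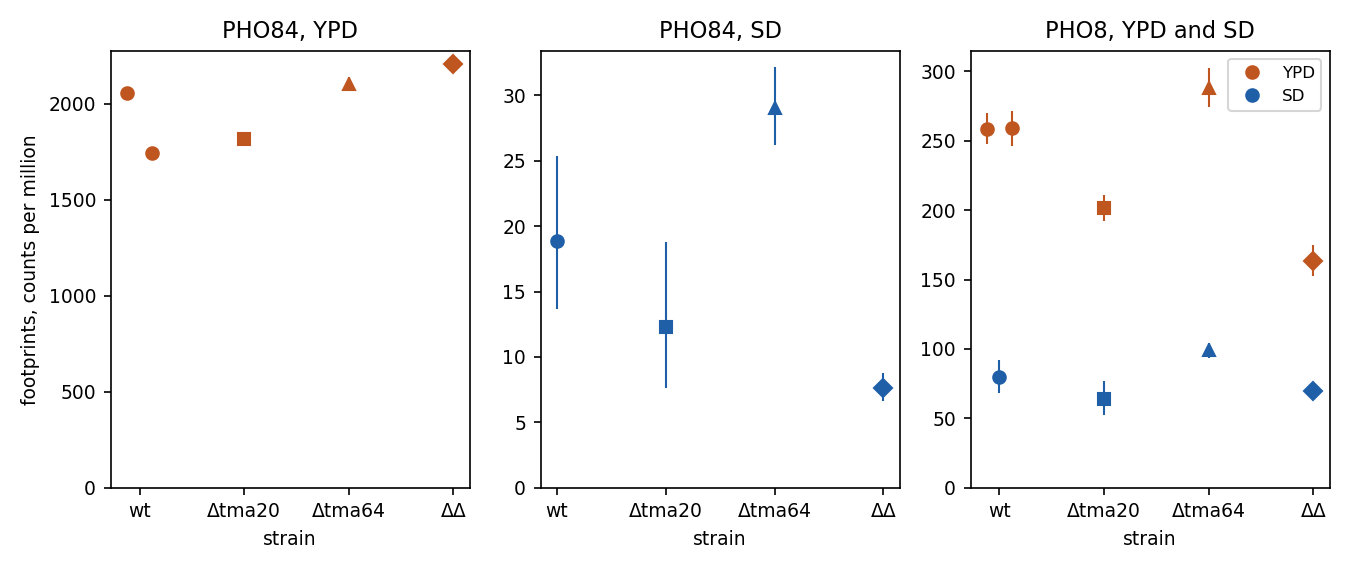
Footprints in CPM by strain for PHO84 in YPD (left), PHO84 in SD (middle) and PHO8 in both media (right); axes start at 0 and ΔΔ is ΔΔtma20tma64. Each point is 1 lysate and bars are exact 95% intervals of counting error; in SD, PHO84 was at 7.65 and 12.3 without TMA20 and at 18.9 and 29.1 with it.

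For loss of TMA64, none of the 10 genes passed in RNA, footprints or translation efficiency with edgeR or DESeq2, and none had an unadjusted p under 0.05. The shares of all genes called were 0.0168%, 0.0559% and 0.0168%. The log2 differences of the 10 genes ran from -0.05 to 0.23 in RNA and from -0.30 to 0.27 in footprints.

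The last comparison asked whether the effect of a deletion depended on the medium or on the other deletion. In footprints the interaction of TMA20 loss with the medium passed for 1 of the 10 genes, PHO84, and for 0.112% of all genes. PHO84 footprints without TMA20 were at 1814 and 2208 CPM in YPD, against 1743 to 2102 CPM with it, so the YPD lysates overlapped. In SD they were at 12.3 (Δtma20) and 7.65 CPM (ΔΔtma20tma64), below 18.9 (wt) and 29.1 CPM (Δtma64). The interaction was -1.62 on the log2 scale (SE 0.263, edgeR adjusted p = 0.0228).

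This call depended on single lysates. Without ΔΔtma20tma64 SD the interaction was -0.84 (edgeR adjusted p = 1.00), and it also missed the threshold without Δtma64 SD (0.276), ΔΔtma20tma64 YPD (0.169) and Δtma20 YPD (0.133). The Δtma20 SD value rests on 21 footprints and has an exact 95% counting interval of 7.60 to 18.8 CPM, which reaches the 13.6 to 25.4 CPM interval of wt SD. In RNA the interaction for PHO84 was -0.84 (SE 0.546, edgeR adjusted p = 1.00), with 21.4 and 9.04 CPM against 26.4 and 26.3 in SD.

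Footprints of PHO89 had an interaction of -1.59 (SE 0.429, edgeR adjusted p = 0.467) and those of PHM6 one of -1.62 (SE 0.492, edgeR adjusted p = 0.485). Neither passed. DESeq2 called PHO89 (adjusted p = 0.0168) as well as PHO84, and edgeR called PHO89 without Δtma64 YPD (0.00172). PHO89 footprints in SD were at 1.75 and 3.17 CPM without TMA20, from 3 and 83 counts, and at 12.3 and 6.47 CPM with it, from 28 and 85.

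For the interaction of TMA20 loss with TMA64 loss, no member passed in edgeR in footprints, with 2 (PHO5 and PHM8) under an unadjusted p of 0.05, 1 called by DESeq2, and 0.149% of all genes called. The nearest was PHM8 (1.17 on the log2 scale, SE 0.231, edgeR adjusted p = 0.0849; DESeq2 adjusted p = 0.0368). PHM8 passed in edgeR without wt SD (0.00290), without ΔΔtma20tma64 YPD (0.0229) and with no filter (0.0306). Its footprints were higher in ΔΔtma20tma64 than in either single mutant in both media, at 52.9 against 34.8 and 46.0 CPM in YPD and at 46.6 against 27.5 and 30.1 CPM in SD. The other interactions, including all those in RNA, called no member with edgeR or DESeq2, and only PHO8 in RNA (TMA64 loss with medium) had an unadjusted p under 0.05.

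Other genes of the pathway were taken as lists, each to be read against the 11.9% of all genes called lower and 14.1% called higher in SD RNA, and the 11.3% and 14.3% in footprints. Of 10 genes of PHO signalling, 2 had lower RNA in SD: PHO4 itself (log2 difference -0.71, SE 0.184, edgeR adjusted p = 0.0192) and VIP1 (-0.42), a kinase that makes the inositol pyrophosphates that report phosphate status. PHO4 footprints did not follow (log2 difference -0.01, SE 0.0945, edgeR adjusted p = 0.944). PHO80, PHO85, PHO2 and the other signalling genes did not pass in RNA, and the list's median was -0.09. In footprints 1 of the 10 fell, DDP1 (-0.50), which breaks down such pyrophosphates. Both counts are near the shares of all genes called lower.

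Of 8 other Pho4 targets, 5 had lower and 1 had higher RNA in SD, with a list median of -1.51. The counts were the same in footprints, with a median of -1.16. The VTC genes encode the vacuolar complex that makes polyphosphate, and VTC3 (-3.01), VTC4 (-2.28), VTC1 (-2.09) and VTC2 (-1.01) all fell on the log2 scale, as did CTF19 (-2.02), a kinetochore gene. VTC3 RNA was at 688 to 913 CPM in YPD and at 94.4 to 113 CPM in SD. PHM7, a membrane protein of unknown function, rose in RNA (1.97), footprints (3.74) and translation efficiency (1.77), and was the only one of these 8 to rise. CACGTG was within 600 bases before the start codon of 6 of the 8 genes, PHM7 not among them, and of 7.23% of all open reading frames with such a window. The 6 were the 5 genes that fell and GPP2, which did not pass in RNA. GPP2 RNA had means of 132 CPM in YPD and 125 CPM in SD, with overlapping lysates. These genes too were listed as Pho4 targets, so the count is no test.

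Among 4 acid phosphatase relatives, PHO12 (-3.60) and PHO11 (-2.43) fell in RNA, and PHO3 and DIA3 did not pass. Of 7 genes for low-affinity transport and polyphosphate turnover, 4 fell in RNA. PHO87, a low-affinity phosphate transporter of the plasma membrane, fell in RNA (log2 difference -1.35) but rose in footprints (0.67), and its translation efficiency rose by 2.03 on the log2 scale (SE 0.198, edgeR adjusted p = 9.48e-06). PHO87 footprints were at 26.5 to 48.0 CPM in YPD and at 50.9 to 64.9 CPM in SD. PHO87 thus went the other way in footprints from PHO84 and SPL2. PHO90, the other low-affinity importer, did not pass in either assay.

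The genes whose RNA followed PHO84 most closely over the 9 lysates, by Pearson's r of log2 CPM among 5403 genes, were FRE5 and SIT1 (r = 0.997 each) and the members PHM6, PHO5 and PHO89 (0.996 each). In footprints they were FIT3 (0.998), CTR1, VMR1, FRE1 and ARN2 (0.995 to 0.996), most of them genes of iron or copper uptake, among 4895 genes. These correlations are mostly set by the difference between media, which all points share. Within the 5 YPD lysates alone, PHO84 RNA had r of 0.944 with SPL2 and 0.917 with PHO5 and of -0.10 with GIT1. Within the 4 SD lysates it had r of 0.988 with PHO8 and 0.959 with PHM6 and of -0.74 with PHO81. These are the highest and lowest values among the other members, each from only 4 or 5 points. In footprints within YPD, r with PHO84 was 0.853 for SPL2, 0.835 for PHO81, 0.061 for PHO5 and -0.31 for GIT1, and lowest for PHO86 (-0.50). In footprints within SD it was 0.851 for PHO8, 0.758 for PHM6 and 0.376 for PHO81. It was negative for GIT1 (-0.37), PHO86 (-0.46) and PHM8 (-0.60) there.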

How the data were processed

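RNA-Seq and Ribo-Seq libraries were made from parts of the same lysates. The authors trimmed reads with cutadapt 1.18 and mapped and counted them with STAR 2.5.3a on the R64-1-1 assembly with the Ensembl annotation. The deposited values are raw read counts per gene, without normalization, unstranded and for each strand. Reads on no feature (18.8% to 39.1% of RNA-Seq and 0.805% to 1.58% of Ribo-Seq reads) were left out.

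Only reads on the gene's own strand entered the tests, unless the opposite strand is named. Low counts were removed with filterByExpr (at least 10), and the rest were scaled by TMM and tested with edgeR 4.0.16 (quasi-likelihood, robust) in R 4.3.3. Adjustment was by Benjamini-Hochberg over all genes tested, with a threshold of 0.05. Medium was tested with strain as covariate, and each deletion with the other and the medium as covariates. CPM values use TMM-scaled library sizes. Standard errors come from the log2 difference and the F statistic. DESeq2 1.42.0 was an alternative. The edgeR steps were run on simulated counts with 200 changed genes. Those counts were drawn with the spread that edgeR had fitted, so they cannot test whether a lone lysate varies like the others. Most groups are single lysates, so p-values rest on a spread shared by all strains, and TMA20 or TMA64 loss pools single and double mutants.

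Both assays of a lysate come from the same cells, which pairs them. The deviations of WT1 and WT2 from their mean had r = 0.126 between assays over 5935 genes. Coordinates are from the RefSeq annotation of R64, matched by locus tag. RefSeq is also the source of the sequences, and all 10 genes matched. Python 3.11.15 was used for these steps.

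The genes and lists were chosen with earlier results of these data known. The text names the 10 genes, up to 4 called genes of each list with the strongest change, the deleted genes, and the 5 genes most like PHO84 in each assay with a mean log2 CPM of at least 3. PHO3, PHO80, PHO85, PHO2, PHO90, DIA3, VTC2 and GPP2 were named after their values were seen.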

Additional observations from a re-analysis of the deposited data

Results flagged for a closer look

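The interaction of TMA20 loss with the medium in PHO84 footprints stood apart, as the effect of TMA20 loss differed between YPD and SD by a test of the difference itself. The interaction was -1.62 on the log2 scale (SE 0.263, edgeR adjusted p = 0.0228), with both SD lysates without TMA20 below both with it. The call was lost without ΔΔtma20tma64 SD, where the value was -0.84 (edgeR adjusted p = 1.00), and also without Δtma64 SD (0.276), ΔΔtma20tma64 YPD (0.169) or Δtma20 YPD (0.133). The share of reads on no feature and the depth differed between these libraries, and their part in it was not tested.

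A lysate far from the others of its medium was looked for in the RNA, the footprints and their ratio of each of the 10 genes, 60 sets of 4 or 5 values in all. None was found, where chance gives about 1 in 20.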

How the results depend on the processing

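The fall of all 10 genes in SD RNA and of 9 in footprints kept its direction under every alternative tried, and only PHM8 footprints lost the call. Unstranded counts gave smaller falls in RNA for PHO84 (-5.36) and PHO5 (-3.44) on the log2 scale, as opposite-strand reads are then added. For PHM8 and PHO81 the weakest RNA fall over the alternatives was -0.616 and -1.17, against -1.045 and -1.42 in the main fit. CACGTG was in 4 of the 10 genes within 300 bases and in 9 within 1000. For TMA20 loss, 3 members were called in RNA and 2 in footprints in SD alone, where 9.88% and 5.27% of all genes were, and 0 in footprints in YPD alone, where 0.799% were. Fits without 1 lysate, in which a lone lysate is taken to vary like the others, called 0 to 2 members for TMA20 loss in footprints, 1 to 3 for translation efficiency between media, 0 to 2 for the interaction of TMA20 loss with medium and 0 to 3 for that with TMA64 loss, both in footprints. For those interactions DESeq2 called 2 and 1 members, and the second had 1 without a filter. The cause was not tested.

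Reversed signs were all of values that did not pass. PHO89 after TMA20 loss was 0.0526 in RNA and 0.228 in footprints in YPD alone. Without 1 lysate it ran from -0.667 to 0.0155 in RNA and from -0.607 to 0.114 in footprints, with 0.0131 among them. PHO84 translation efficiency between media was 0.0234 with the replicate block of the lysate and ran from -0.446 to 0.0704 without 1 lysate, and it was -1.58 (edgeR adjusted p = 0.0434) with unstranded counts. The interaction of both deletions in footprints ran from -1.57 to 0.0702 for PHO84 and from -1.49 to 0.972 for PHO89 without 1 lysate. The replicate block changed no call other than that of PHM8. All alternatives for the interactions and the opposite strand were chosen after seeing the data.

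The numbers of all genes called moved more. Between media, the 1549 genes called in RNA fell to 848 without Δtma20 YPD, the 442 in translation efficiency to 141 without Δtma20 SD and the 1266 on the opposite strand to 689 without ΔΔtma20tma64 YPD. For TMA20 loss there were 5 in RNA, 52 with DESeq2 and 583 in SD alone, then 212 in footprints, 42 in YPD alone and 56 without Δtma20 SD, and 4 in translation efficiency, 20 with DESeq2. For TMA64 loss there were 1 in RNA and 3 in footprints, and 293 and 193 in SD alone. For the interactions of TMA20 loss in footprints, DESeq2 called 16 genes against 6 with medium and 28 against 8 with TMA64 loss, and fits without 1 lysate called 0 to 46 and 0 to 145. Footprints in SD were few for SPL2, PHO5, PHM6, PHO89 and GIT1 in the wt and Δtma20 libraries, which limits their translation efficiency.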
